A study of Mus musculus with 6 samples.

Results

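The angiopoietin and Tie receptor genes are the ligands Angpt1 and Angpt2, the receptor tyrosine kinases Tek (also called Tie2) and Tie1, and Ptprb, which encodes the vascular endothelial protein tyrosine phosphatase. They were chosen by name, with earlier results of these data known, and all 5 were found among the 31054 features of the count tables. Their levels were read from lungs of old mice, by library and by cell type, and the libraries labelled p16-DTR were compared with the controls.

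Angiopoietin-1 is made by cells around vessels, binds Tek on the endothelium and supports vessel stability. Angiopoietin-2 binds the same receptor, acts as a weak or context-dependent agonist that can oppose angiopoietin-1, and is known as a product of activated endothelium and of lymphatic vessel development. Tie1 has no well-established ligand of its own and pairs with Tek, and the phosphatase encoded by Ptprb removes phosphate from Tek and so restrains its signal.

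The study asked how the aged lung changes when cells with an active p16 (Cdkn2a) promoter are removed. Mice of the genotype p16-CreERT2/R26-LSL-DTR gave the 3 libraries labelled p16-DTR: in them, tamoxifen-activated Cre, driven by the p16 promoter, opens a diphtheria toxin receptor gene at the Rosa26 locus. The 3 control libraries came from p16-CreERT2 mice, which have the Cre and no toxin receptor allele. All were male C57BL/6 mice of 21 months, and both groups were given tamoxifen for 5 days and, after an interval of 2 weeks, diphtheria toxin for 5 days, followed by 2 weeks of recovery. Each library was 1 mouse and mixed 20000 sorted CD45- cells with 9000 CD45+ cells, so the shares of the lineages are set in part by the sort.

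The libraries held 13482 to 17332 barcodes and 254200305 to 344421685 UMIs (unique molecular identifiers, each 1 counted RNA molecule), with medians of 16588 to 18149 UMIs per barcode. Between 315 and 393 barcodes of each library also occurred in another one. Marker genes that include none of the 5 members placed 80.6% to 83.3% of the retained cells of a library in 29 cell types. A cell type name below stands for the cells that passed its marker gate. The general capillary and arterial gates each had 1 of their 6 markers with a median of 0 in their cells, and 26.6% of the arterial cells lay near the limit of the gate. Control library 1 stood apart with 5006 alveolar fibroblasts against 2030 to 3147 in the other 5. Cdkn2a was higher, not lower, over all cells of the libraries labelled p16-DTR, at 7.10, 8.57 and 7.31 CPM (counts per 1000000 UMIs) against 1.152, 2.60 and 2.84 (edgeR log2 fold change 1.86 ± 0.32 SE, adjusted p 0.126), and in alveolar fibroblasts (5.11 ± 0.23, adjusted p 2.75e-04). In aerocytes, a capillary type and the highest for Cdkn2a of those tested, the groups overlapped. They had 44.7, 32.9 and 45.1 CPM in libraries labelled p16-DTR against 23.4, 36.9 and 42.7 in controls (edgeR adjusted p 0.563). The groups below are therefore named as the libraries are labelled.

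Levels are CPM, the UMIs of a gene as a share of the UMIs of all genes on the usual CPM scale, summed over the cells of 1 type in 1 library. Free RNA in the droplets gives a low level in every cell type, so a gene was called above background in a type when its mean over the 6 libraries was at least 3 times its highest mean among B cells, T cells, neutrophils and both classes of monocytes, with at least 30 UMIs in all. Those reference means were 6.85 CPM for Angpt1, 1.46 for Angpt2, 3.79 for Tek, 2.09 for Tie1 and 16.3 for Ptprb. Group tests were run in the 17 types with at least 50 cells in every library. Values are given for libraries 1, 2 and 3 of a group in that order.

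**Figure D1:**
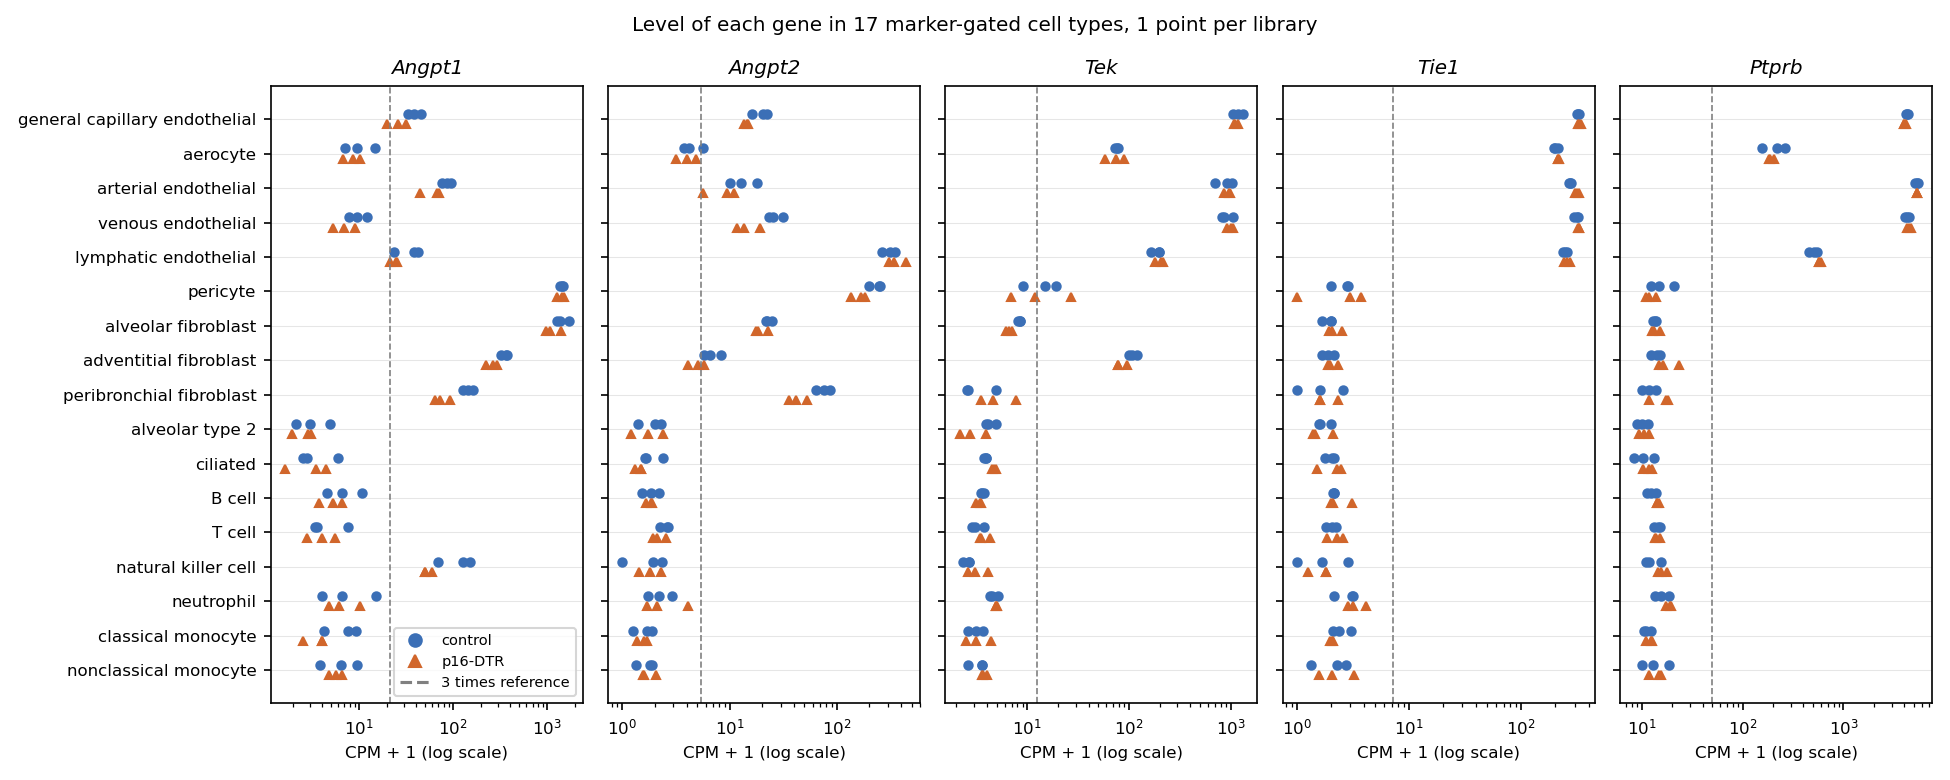
Level of each gene (x axes, CPM + 1, log scale) in the 17 tested cell types (y axis), with 1 point per library, circles for control and triangles for p16-DTR, and a dashed line at 3 times the highest reference immune mean. Tek, Tie1 and Ptprb were high in the 5 endothelial types, Angpt1 in pericytes and fibroblasts, and Angpt2 in lymphatic endothelial cells and pericytes.

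Angpt1 (ENSMUSG00000022309, protein-coding, minus strand, chromosome 15, 42424723 to 42676977 in GRCm38) was highest in pericytes and alveolar fibroblasts. Pericytes, the mural cells of capillaries, held 1450, 1458 and 1384 CPM in controls and 1449, 1493 and 1282 in libraries labelled p16-DTR. Alveolar fibroblasts, the Npnt- and Tcf21-positive cells of the alveolar wall, held 1694, 1363 and 1268 CPM in controls and 1398, 982 and 1064 in libraries labelled p16-DTR. The 2 types did not differ beyond their spread (mean log2 difference 0.15 ± 0.27 SD over 6 libraries, pericytes higher in 5, exact sign-flip permutation p 0.25, two-sided). Adventitial fibroblasts, which surround larger vessels and airways, followed at a mean of 309 CPM and peribronchial fibroblasts at 109. Alveolar fibroblasts stood above adventitial ones, and these above peribronchial ones, in 6 of 6 libraries. Each of those steps had the smallest p that an exact two-sided sign-flip permutation test over 6 libraries can give, which became 0.0515 after Benjamini-Hochberg adjustment over the 28 neighbouring pairs of the 5 genes. An edgeR fit with the library as a block, chosen after this result was seen, called both steps. The log2 differences were 2.01 ± 0.06 (SE) and 1.61 ± 0.10, with edgeR adjusted p of 1.48e-09 and 1.16e-07. That fit called 59.6% of the gene tests between neighbouring types, so such a call is common. Smooth muscle cells, not tested by group because 1 library had 29, held 566 to 706 CPM.

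Alveolar fibroblasts were so many that they held most of the Angpt1 RNA: 78.0% to 83.5% of the Angpt1 UMIs of a library, against 0.984% to 2.94% in pericytes. After each cell was thinned to 5000 UMIs, 96.2% of alveolar fibroblasts (95% Wilson interval 95.9% to 96.5%) and 98.2% of pericytes (96.6% to 99.04%) had an Angpt1 UMI, against 2.40% of B cells (2.00% to 2.89%). Unthinned shares were 99.2%, 98.4% and 5.83%, at median depths of 23330, 16906 and 13416 UMIs. Such intervals cover counting error only, and thinning left out 1802 of 37325 cells labelled p16-DTR and 1694 of 37711 control cells with fewer UMIs.

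Within the endothelium, Angpt1 was lower and uneven. Arterial endothelial cells had 93.5, 84.3 and 76.0 CPM in controls and 67.1, 70.2 and 43.1 in libraries labelled p16-DTR, and general capillary cells 44.6, 37.4 and 32.4 against 30.7, 25.1 and 19.1. Arterial cells were above general capillary cells in 6 of 6 libraries, by 1.18 ± 0.14 (SD) on the log2 scale (exact sign-flip permutation, adjusted p 0.0515; edgeR with library block 1.21 ± 0.08 SE, adjusted p 6.99e-11). General capillary and lymphatic endothelial cells, the latter with a mean of 28.3 CPM, were in that order in 4 of 6 libraries (exact sign-flip permutation p 0.281; edgeR with library block 0.28 ± 0.10 SE, adjusted p 0.0352). Venous endothelial cells and aerocytes, the Car4-positive capillary cells that cover the gas exchange surface, were not above background.

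Among the tested immune types, natural killer cells alone were above background for Angpt1. Their levels were 150, 68.5 and 127 CPM in controls and 49.6, 48.8 and 58.6 in libraries labelled p16-DTR, against 1.83 to 6.74 CPM in T cells. After thinning, 18.5% of natural killer cells (16.2% to 21.0%) and 1.78% of T cells (1.47% to 2.14%) had an Angpt1 UMI, at median depths of 14212 and 15825 UMIs (29.2% and 4.89% unthinned). Summed mesenchymal lineage markers were 12.7 to 32.9 CPM in control natural killer cells and 21.8 to 27.8 CPM in those labelled p16-DTR, with 5 of 6 markers at 1 CPM or more. The cells gated as platelets or megakaryocytes held 465 to 1083 CPM, but their median depth was 1968 UMIs and 211 of the 322 came from control library 3. Basophils or mast cells, too few for the group test with 10 to 115 in a library, held 21.3, 22.9 and 25.6 CPM in controls and 35.6, 93.6 and 84.7 in libraries labelled p16-DTR. Secretory and mesothelial cells, also few, had 9.20 to 84.6 and 4.24 to 50.7 CPM.

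Angpt2 (ENSMUSG00000031465, protein-coding, minus strand, chromosome 8, 18690263 to 18741562) lies within Mcph1, a gene on the opposite strand from 18595131 to 18803189. Whether counting used the strand is not given in the sources used here. In B cells Mcph1 had a mean of 36.2 CPM and Angpt2 of 0.826. Lymphatic endothelial cells were highest for Angpt2, at 315, 265 and 352 CPM in controls and 305, 442 and 344 in libraries labelled p16-DTR. Pericytes followed with 249, 200 and 254 CPM in controls and 167, 184 and 135 in libraries labelled p16-DTR. The step from lymphatic cells to pericytes was present in 6 of 6 libraries, by 0.78 ± 0.44 (SD) on the log2 scale (exact sign-flip permutation, adjusted p 0.0515; edgeR with library block 0.71 ± 0.14 SE, adjusted p 5.73e-04). Smooth muscle cells had 104 to 148 CPM and peribronchial fibroblasts a mean of 58.5.

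Alveolar fibroblasts, venous cells and general capillary cells had lower Angpt2 levels, with means of 20.4, 19.9 and 16.1 CPM, and their order held in 3 and 4 of 6 libraries (edgeR with library block, adjusted p 0.690 and 0.0361). Lymphatic cells exceeded general capillary cells 12.4-fold to 31.5-fold within a library. Even so, the UMIs of Angpt2 were spread over several types: alveolar fibroblasts held 23.2% to 36.4% of them in a library, lymphatic cells 12.4% to 30.3%, and general capillary cells 11.9% to 24.6%. After thinning, 44.9% of lymphatic endothelial cells (42.0% to 47.8%) and 57.4% of pericytes (53.0% to 61.7%) had an Angpt2 UMI, against 0.412% of B cells (0.264% to 0.642%), with 59.6%, 83.7% and 1.35% unthinned. The same cell often had both ligands in pericytes, where 56.8% of thinned cells had a UMI of Angpt1 and of Angpt2, but not in lymphatic cells, at 3.93%.

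**Figure D2:**
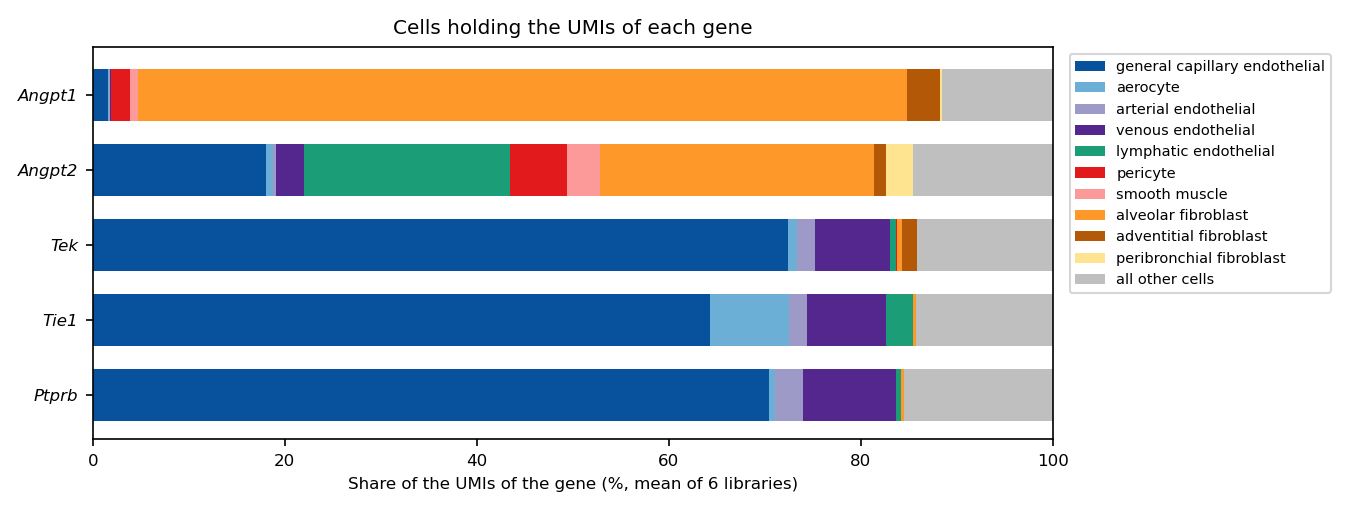
Share of the UMIs of each gene (x axis, percent, mean of 6 libraries) found in each cell type, with 1 bar per gene; grey holds all other cells, including those without a single cell type. Alveolar fibroblasts held 80.1% of Angpt1, and general capillary cells 72.4% of Tek, 64.4% of Tie1 and 70.4% of Ptprb.

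Tek (ENSMUSG00000006386, protein-coding, plus strand, chromosome 4, 94739289 to 94874976) was highest in general capillary endothelial cells, at 1331, 1176 and 1061 CPM in controls and 1101, 1192 and 1074 in libraries labelled p16-DTR. Venous cells had a mean of 959 CPM and arterial cells of 911, in that order in 4 of 6 libraries (exact sign-flip permutation p 0.281). Lymphatic endothelial cells were lower, with 164 to 214 CPM, and aerocytes lower still, with 76.3, 75.7 and 72.2 CPM in controls and 72.95, 88.4 and 57.5 in libraries labelled p16-DTR. General capillary cells exceeded aerocytes 13.5-fold to 18.7-fold within a library (edgeR with library block, log2 difference 3.89 ± 0.06 SE, adjusted p 5.28e-13). Of all genes, 70.9% differed between those 2 capillary types by that test.

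Outside the endothelium, Tek was above background in adventitial fibroblasts and, at a mean of 13.8 CPM over 5.91 to 25.7, in pericytes. Adventitial fibroblasts held 106, 99.5 and 120 CPM in controls and 77.5, 77.7 and 95.6 in libraries labelled p16-DTR, and alveolar fibroblasts 5.11 to 7.56. The 2 fibroblast types differed by 3.93 ± 0.07 (SE) on the log2 scale for Tek (edgeR with library block, adjusted p 6.08e-11, with 74% of genes called) and by -0.00 ± 0.20 for Tie1 (adjusted p 0.986). After thinning, 29.9% of adventitial fibroblasts (28.1% to 31.7%) had a Tek UMI, against 2.94% of alveolar fibroblasts (2.70% to 3.20%) and 1.32% of B cells (1.03% to 1.69%), with 64.8%, 10.3% and 3.91% unthinned. Only 0.274% of the adventitial fibroblasts with a Tek UMI also had one of Tie1, whereas 79.3% of general capillary cells with Tek did. Summed endothelial lineage markers were 156 to 176 CPM in control adventitial fibroblasts and 169 to 183 CPM in those labelled p16-DTR. In pericytes they were 592 to 657 CPM in controls and 548 to 667 in libraries labelled p16-DTR. Their part in the Tek levels was not tested.

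Tie1 (ENSMUSG00000033191, protein-coding, minus strand, chromosome 4, 118471191 to 118490061) was above background in the 5 endothelial types alone, among the 17 tested, and varied little between them. General capillary cells had 318 to 339 CPM, venous cells 297 to 328, arterial cells 267 to 330, lymphatic cells 234 to 272 and aerocytes 198 to 218. General capillary, venous and arterial cells did not differ beyond their spread as neighbours (exact sign-flip permutation p 0.0625 for both pairs; edgeR with library block, adjusted p 0.825 and 0.107). The step from arterial to lymphatic cells was present in 6 of 6 libraries, and so was the next one to aerocytes (exact sign-flip permutation, adjusted p 0.0515 each; edgeR adjusted p 0.00126 and 0.0497). General capillary cells exceeded aerocytes 1.56 ± 0.0529-fold (SD, 6 libraries; edgeR with library block, log2 difference 0.56 ± 0.03 SE, adjusted p 1.71e-08), against 15.8 ± 1.91-fold for Tek.

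Ptprb (ENSMUSG00000020154, protein-coding, plus strand, chromosome 10, 116275523 to 116389535) followed Tek more than Tie1 across the capillary types. Arterial cells had 5077 to 5470 CPM, venous cells 4061 to 4686 and general capillary cells 3974 to 4391. Arterial cells stood above venous cells in 6 of 6 libraries, by 0.30 ± 0.08 (SD) on the log2 scale (exact sign-flip permutation, adjusted p 0.0515; edgeR adjusted p 2.01e-04), and venous and general capillary cells did not differ beyond their spread (exact sign-flip permutation p 0.156). Lymphatic cells held 452 to 592 CPM and aerocytes 216, 261 and 156 CPM in controls and 185, 205 and 182 in libraries labelled p16-DTR. General capillary cells exceeded aerocytes 16.8-fold to 26.8-fold within a library (edgeR with library block, log2 difference 4.31 ± 0.08 SE, adjusted p 1.75e-12).

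Single cells showed the same contrast between the 2 receptors. After thinning, 78.0% of general capillary cells had UMIs of both Tek and Tie1 and 1.25% had Tie1 without Tek. Among aerocytes 12.2% had both, 50.9% had Tie1 without Tek, and 6.27% had Tek without Tie1. In lymphatic cells 38.5% had both and 32.9% had Tie1 without Tek. In B cells, taken as background, 0.672% (0.474% to 0.952%) had Tie1 without Tek and 1.32% had Tek without Tie1. Unthinned, 94.6% of general capillary cells, 92.4% of aerocytes and 2.00% of B cells had a Tie1 UMI. Among aerocytes, 66.1% of the cells with Tek and 62.5% of those without it had a Tie1 UMI. Median depths were 15568 UMIs in general capillary cells, 21670 in aerocytes, 14006 in lymphatic cells and 13416 in B cells before thinning.

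For each member, the 3 genes with the most similar pattern were taken by Pearson's r of the mean log2(CPM + 1) over the 17 cell types, among 12098 genes whose highest mean reached 20 CPM. The cell types share libraries and many other genes, so r is a description. Tslp (r 0.90), Sparcl1 (0.90) and Gpsm1 (0.90) were most like Angpt1, and Rep15 (0.94), Smtn (0.93) and Hoxb3os (0.91) most like Angpt2. Fgd5 (0.96), Aqp1 (0.95) and Zfp979 (0.95) were most like Tek, and Ccm2l, Wscd1 and Emcn (1.00, 1.00 and 0.99) most like Tie1. Gpihbp1 (0.99), Sox17 (0.98) and Gsg1 (0.98) were most like Ptprb. Sparcl1, Gpihbp1 and Sox17 were among the genes that set the gates. Among the members, r was 0.94 for Tek with Ptprb, 0.90 for Tek with Tie1, 0.96 for Tie1 with Ptprb and 0.62 for Angpt1 with Angpt2.

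Because the receptor genes were both endothelial but differed in aerocytes, the 250 bases before the start of each were searched for motifs of factors tied to endothelial genes. RefSeq promoters of GRCm38.p6 matched 2 of the 5 members, Tek and Tie1. The Tek stretch, chr4:94739039-94739288 on the plus strand, is shown 5′ to 3′ with matches to the ETS core GGAA on either strand in capitals.
Tek: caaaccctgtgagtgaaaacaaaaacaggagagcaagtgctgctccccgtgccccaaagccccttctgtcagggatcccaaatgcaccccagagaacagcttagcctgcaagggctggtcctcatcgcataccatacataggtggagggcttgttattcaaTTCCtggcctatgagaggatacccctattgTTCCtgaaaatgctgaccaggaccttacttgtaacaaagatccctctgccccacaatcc
Tek had 2 such matches, a number reached by 76.8% of 32841 promoters of this length, and Tie1 had 7, reached by 3.82%. At least 1 match was present in 93.5% of promoters. Neither stretch held the forkhead letters TGTTTAC (3.17% of promoters) or the GATA letters AGATAA (9.99%). Most of the Tie1 stretch lies in an exon of 1 GENCODE transcript that starts further upstream, so its letters are not shown. A match is a description of the letters and not of binding.

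The group comparison asked whether ligands or receptors differed between libraries labelled p16-DTR and controls within a cell type. Of 85 combinations of member and cell type, 71 passed the filter on low counts, and 4 were called at an adjusted p under 0.05 by edgeR's quasi-likelihood test with Benjamini-Hochberg adjustment over all genes of the type. The 4 were Angpt1 and Angpt2 in peribronchial fibroblasts, Angpt2 in venous endothelial cells and Angpt1 in natural killer cells, all lower in libraries labelled p16-DTR. Over all genes in the 17 types, 0.722% of tests were called in either direction and 0.428% in that direction. At an unadjusted p under 0.05 stood 16 of the 71 members' tests, against 13.8% of all tests. Because the members were chosen with earlier results of these data known, these counts are a description.

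**Figure D3:**
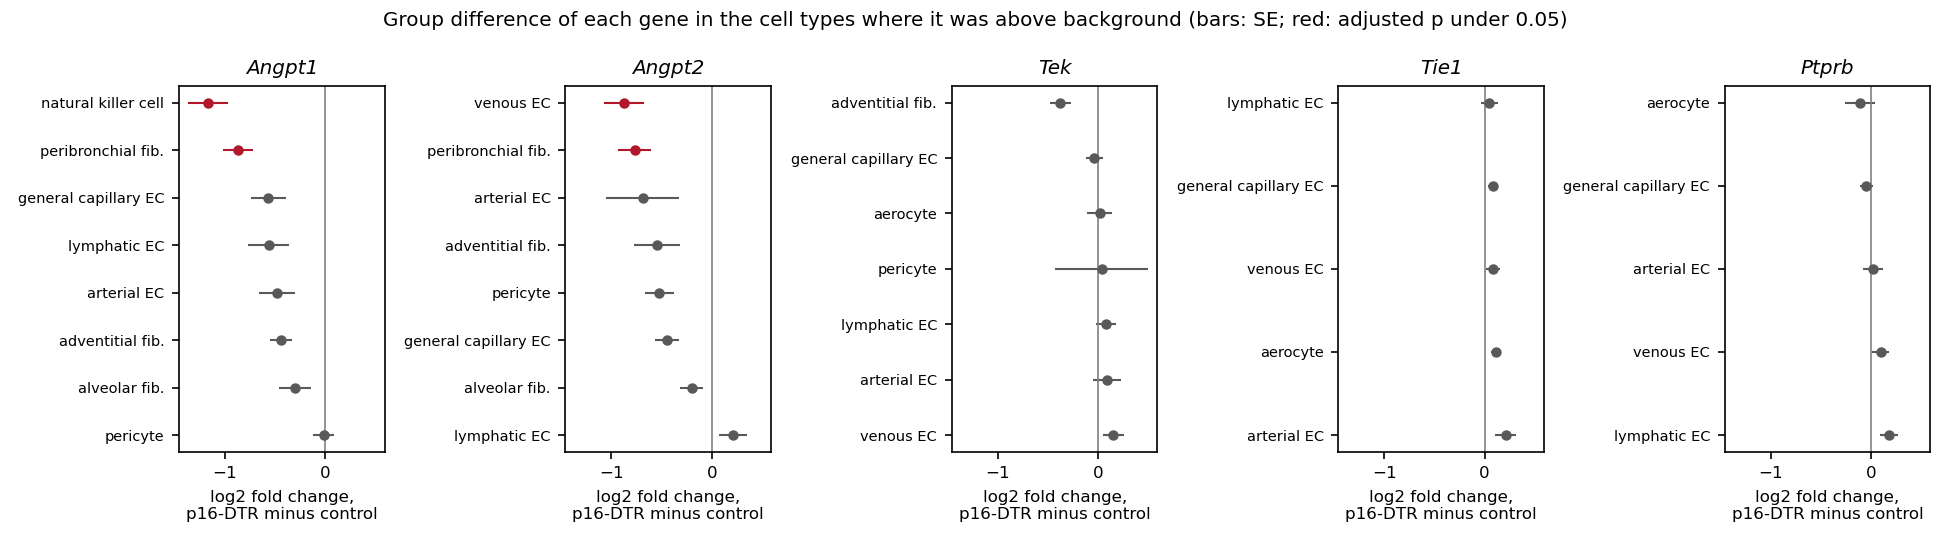
Log2 fold change of each gene (x axes, p16-DTR minus control, bars are SE) in the cell types where it was above background, with calls at an adjusted p under 0.05 in red. All 8 values of Angpt1 and 7 of 8 of Angpt2 lay below 0, whereas those of Tek, Tie1 and Ptprb lay between -0.38 and 0.21. For Angpt2, adventitial fibroblasts passed the background limit only through the controls.

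Angpt1 was lower in peribronchial fibroblasts, the Hhip- and Aspn-positive cells next to airways. Their levels were 162, 142 and 125 CPM in controls and 92.2, 62.7 and 71.0 in libraries labelled p16-DTR. The groups did not overlap, which was so, in this direction, for 14.4% of genes in this type. The log2 fold change was -0.87 ± 0.15 (SE) with an edgeR adjusted p of 0.0187, and 1.23% of genes were called lower here. The call was lost without control 1 (adjusted p 0.0795), control 2 (0.0556), p16-DTR 2 (0.0655) or p16-DTR 3 (0.0755), with log2 fold changes from -1.05 to -0.77 over the 6 omissions.

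Angpt2 was lower in the same cells. Its levels were 84.8, 63.5 and 75.7 CPM in controls and 51.5, 40.4 and 34.9 in libraries labelled p16-DTR, without overlap. The log2 fold change was -0.77 ± 0.16 (SE) with an edgeR adjusted p of 0.0417. The call was lost without control 1 (0.157), control 2 (0.0566), control 3 (0.0855), p16-DTR 2 (0.112) or p16-DTR 3 (0.124), and the adjusted p was 0.0942 with a stricter marker gate. Mcph1 had 14.3, 10.2 and 9.22 CPM there in controls and 8.08, 6.21 and 12.4 in libraries labelled p16-DTR (adjusted p 0.610).

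Markers of some other cell types also differed between the groups in these cells. The gate's own markers summed to 10728.5 to 11614 CPM in controls and 10149 to 10792.6 in libraries labelled p16-DTR, with overlap. Summed alveolar fibroblast markers, all 6 at 1 CPM or more, were 314 to 433 CPM in control peribronchial fibroblasts and 227 to 289 CPM in those labelled p16-DTR, without overlap, and were 7887 to 10377 CPM in alveolar fibroblasts. Adventitial fibroblast markers were 1076 to 1200 CPM against 957 to 1056. Pericyte markers (124 to 151 against 134 to 149), smooth muscle markers (1068 to 1388 against 1206 to 1749) and endothelial markers (132 to 180 against 154 to 182) overlapped. The part of these markers' cells in the Angpt1 and Angpt2 differences was not tested.

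Angpt2 was also lower in venous endothelial cells, at 24.6, 30.4 and 22.6 CPM in controls and 10.7, 12.7 and 18.4 in libraries labelled p16-DTR. The groups did not overlap, as for 13.8% of genes in this direction, and 2.48% of genes were called lower in this type. The log2 fold change was -0.87 ± 0.20 (SE) with an edgeR adjusted p of 0.0416. It lost the call without control 1 (adjusted p 0.0810), control 2 (0.105), control 3 (0.0507), p16-DTR 1 (0.117) or p16-DTR 2 (0.116), with a stricter marker gate (0.0621) and when cells of several lineages were kept (0.0732). The venous gate's own markers summed to 9079 to 9546 CPM in controls and 9627 to 10574 in libraries labelled p16-DTR, without overlap. Summed general capillary markers in these cells, 6 of 6 at 1 CPM or more, were 4756 to 5021 CPM in controls. In libraries labelled p16-DTR they were 4990 to 5739 CPM, with overlap, and in general capillary cells 7895 to 9122. Summed lymphatic markers in the venous cells were 1987 to 2434 CPM in controls and 2350 to 2650 CPM in libraries labelled p16-DTR, with overlap. Summed pericyte markers, with 1 of 6 at 1 CPM or more, were 4.74 to 7.85 CPM against 3.83 to 4.62, without overlap. The part of these markers in the Angpt2 difference was not tested. Mcph1 had 36.7, 32.3 and 34.5 CPM against 45.7, 27.5 and 35.0 (adjusted p 0.821).

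Elsewhere the Angpt2 difference was not called. General capillary cells had 19.7, 21.4 and 15.3 CPM in controls and 13.5, 14.0 and 12.7 in libraries labelled p16-DTR. Their log2 fold change was -0.44 ± 0.12 (SE) without overlap, as for 20.1% of genes in this direction. The edgeR adjusted p was 0.0923 and the DESeq2 one 0.0176. Of 15945 genes tested in general capillary cells, edgeR called 204, and DESeq2 called 1257. Summed pericyte markers in these cells were 7.73 to 11.7 CPM in controls against 5.49 to 7.69, and venous markers 490 to 581 CPM against 586 to 700.01, both without overlap and in opposite directions; their part in the Angpt2 and Angpt1 differences of these cells was not tested. Mcph1 did not overlap here either, at 23.6 to 25.5 CPM in controls and 26.7 to 29.4 in libraries labelled p16-DTR (adjusted p 0.0651). Pericytes had a log2 fold change of -0.52 ± 0.14 from the levels given above, again without overlap, as for 6.96% of genes (adjusted p 0.290). Smooth muscle markers in the pericytes were 1203 to 1324 CPM in controls and 1576 to 2101 in libraries labelled p16-DTR, also without overlap, and their part was not tested. In lymphatic endothelial cells, where Angpt2 was highest, the value was 0.21 ± 0.14 (adjusted p 0.574) and the groups overlapped. It was 0.04 without p16-DTR 2, the highest library, 0.12 without control 2 and 0.33 without p16-DTR 1. Mcph1 in lymphatic cells was at 33.6 to 35.6 CPM in controls and 38.9 to 47.9 in libraries labelled p16-DTR, without overlap (adjusted p 0.395). The group effect of lymphatic cells minus that of general capillary cells was 0.65 ± 0.19 (SE) on the log2 scale for Angpt2, with an edgeR interaction p of 0.00191 before adjustment and 0.155 after it; with 1 library left out it ranged from 0.44 to 0.89, and was 0.52 without p16-DTR 2. None of the 20 interaction tests of a member was called by edgeR, and that was the one with an unadjusted p under 0.05. Over all genes, 0.316% of these tests were called for lymphatic cells, 0.0914% for aerocytes, 0.0281% for venous and 0% for arterial cells, each against general capillary cells. In the 8 types above background, 7 log2 fold changes of Angpt2 were below 0, against 49.8% of all genes' values. Adventitial fibroblasts passed the background limit only through the controls, with means of 5.85 CPM in controls and 3.97 in libraries labelled p16-DTR. Their value of -0.54 therefore adds nothing to that count. In 4 of the 8 the groups did not overlap, with p16-DTR lower, against 12.9% of all genes.

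Angpt1 in natural killer cells was lower in libraries labelled p16-DTR, on the levels given above. The log2 fold change was -1.16 ± 0.20 (SE) with an edgeR adjusted p of 0.0209, where 0.472% of genes were called lower, and the groups did not overlap, as for 7.41% of genes. Control 2, the lowest of its group with 71 cells, was 68.5 CPM against 58.6 in the highest p16-DTR library. The call was lost without control 1 (adjusted p 0.0888), control 3 (0.140) or p16-DTR 1 (0.0861), and the adjusted p was 0.380 when cells of several lineages were kept. Summed T cell markers, 5 of 5 at 1 CPM or more, were 72.3 to 75.8 CPM in control natural killer cells and 94.2 to 127 in those labelled p16-DTR, without overlap, while platelet markers were 2.54 to 6.71 against 4.83 to 7.92. Control 1 had the highest Angpt1 in natural killer cells and the most alveolar fibroblasts, the main holders of Angpt1 RNA. Control 3 had 127 CPM with 3147 alveolar fibroblasts, and p16-DTR 1 had 49.6 CPM with 2895. In control 1, T cells had 6.74 CPM, B cells 9.84 and neutrophils 14.3. The part of T cells and of free RNA in the group difference was not tested.

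In the cells with the highest Angpt1, no difference was called. Pericytes had a log2 fold change of -0.02 ± 0.10 (SE, edgeR adjusted p 0.979) and alveolar fibroblasts of -0.30 ± 0.16 (adjusted p 0.306), and both overlapped between groups. The alveolar fibroblast value was -0.17 without control 1 and -0.48 without p16-DTR 1. Adventitial fibroblasts had 368, 378 and 324 CPM in controls and 295, 266 and 225 in libraries labelled p16-DTR. Their log2 fold change was -0.44 ± 0.11 without overlap, as for 9.81% of genes. The edgeR adjusted p was 0.163 and the DESeq2 one 0.00662, in a type where edgeR called 0 genes and DESeq2 218. The gate markers of adventitial fibroblasts did not overlap either, at 5127 to 5294 CPM in controls and 4698 to 5077 in libraries labelled p16-DTR. Summed alveolar fibroblast markers in them were 2630 to 3882 CPM in controls and 2298 to 2888 in libraries labelled p16-DTR, with overlap. The part of these markers in the Angpt1 difference was not tested. General capillary cells had -0.57 ± 0.17 (adjusted p 0.110, DESeq2 0.0122) and arterial cells -0.48 ± 0.18 (adjusted p 0.385), both without overlap, which held for 20.1% of genes in general capillary cells and 7.65% in arterial cells. The arterial value was -0.29 without p16-DTR 3. All 8 types with Angpt1 above background had a log2 fold change below 0, with a median of -0.52, and 5 of the 8 did not overlap. Over all genes in those types, 49.6% of values were below 0 and 12.2% were lower without overlap. These 8 values come from the same 6 libraries and are not independent.

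**Figure D4:**
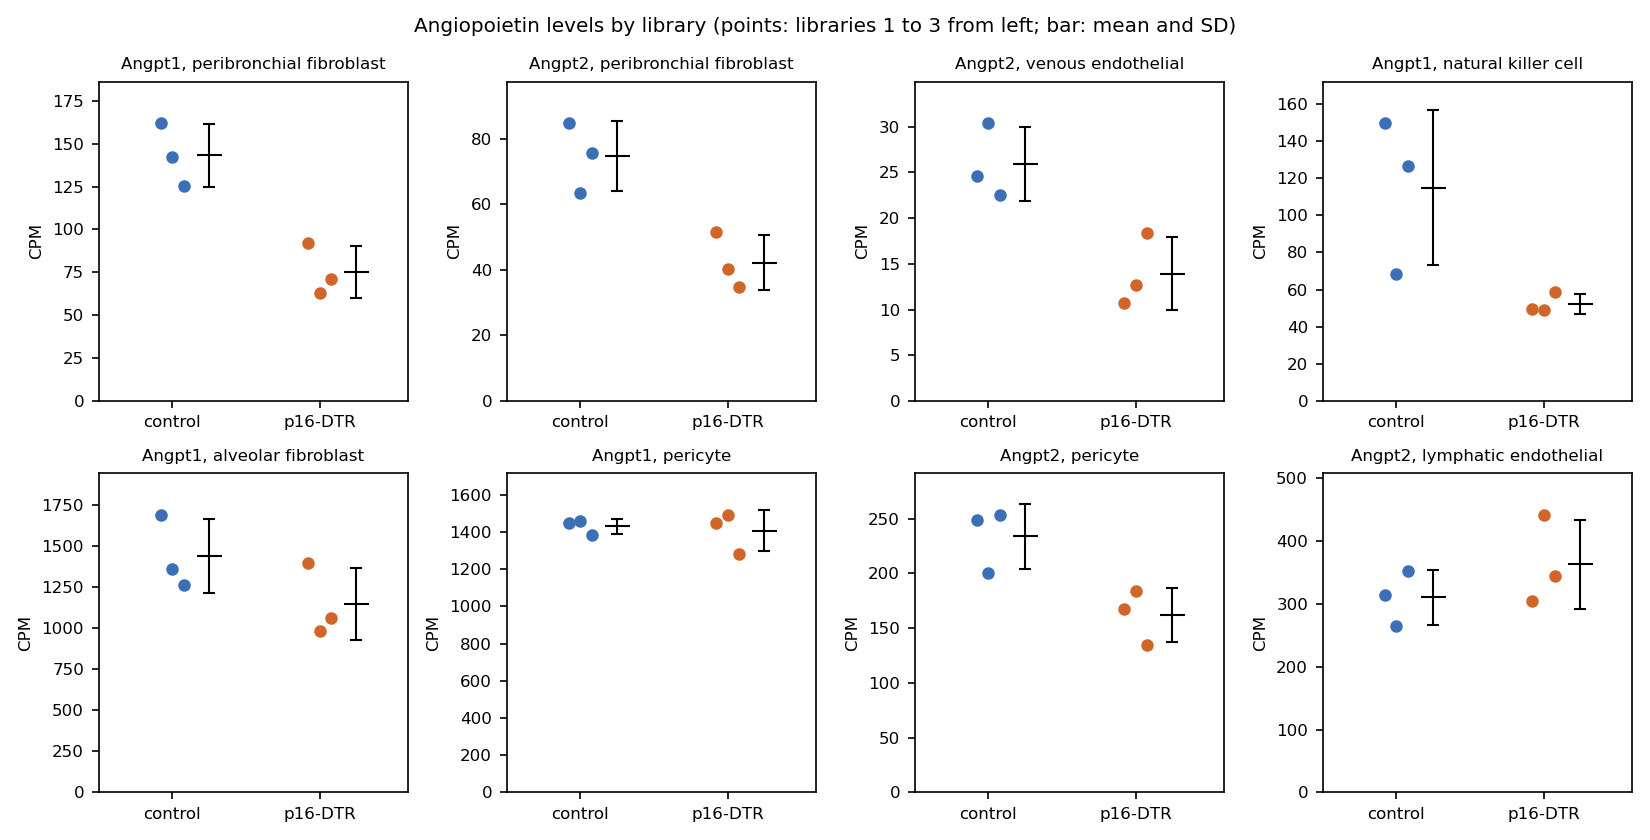
Angpt1 or Angpt2 level (y axes, CPM, starting at 0) in 8 pairs of gene and cell type, with 1 point per library and the mean and SD of 3 libraries beside the points. The upper row shows the 4 called pairs, in which no control point is as low as any p16-DTR point, and the lower row 4 uncalled pairs, of which only Angpt2 in pericytes is without overlap.

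The receptors and the phosphatase were not called in any of the 17 types by edgeR. Tek in general capillary cells had a log2 fold change of -0.04 ± 0.09 (SE, adjusted p 0.830), Tie1 of 0.08 ± 0.05 (adjusted p 0.324) and Ptprb of -0.04 ± 0.07 (adjusted p 0.722), which was -0.02 without control 2 and -0.07 without p16-DTR 3. In arterial cells Tie1 had 267, 275 and 278 CPM in controls and 330, 303 and 318 in libraries labelled p16-DTR, without overlap (as for 7.4% of genes in this direction), at a log2 fold change of 0.21 ± 0.10 (adjusted p 0.535). Tie1 in aerocytes was likewise without overlap on the higher side, as for 7.34% of genes there (0.11 ± 0.05, unadjusted p 0.0451, adjusted 0.289). Ptprb in lymphatic cells was also higher without overlap, as for 9.38% of genes (0.18 ± 0.09, adjusted p 0.410), while in general capillary cells it was lower without overlap, as for 20.1% of genes. Tek in adventitial fibroblasts was lower without overlap, as for 9.81% of genes, with a log2 fold change of -0.38 ± 0.10 (adjusted p 0.196). At an unadjusted edgeR p under 0.05 stood 2 of 15 tests of Tek, 1 of 11 of Tie1 and 1 of 17 of Ptprb, against 13.8% of all tests. DESeq2 called 1 of the tests of these genes, Tek in alveolar fibroblasts at a log2 fold change of -0.39 (adjusted p 0.0170). Tek was below the background limit there, and in that type DESeq2 called 1474 genes and edgeR 294.

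Over all cells of a library, Angpt1 was at 693, 381 and 369 CPM in controls and 390, 249 and 229 in libraries labelled p16-DTR, with a log2 fold change of -0.68 ± 0.32 (SE, edgeR adjusted p 0.252) and overlapping groups; it was -0.32 without control 1 and -0.97 at the other extreme, without p16-DTR 1. Angpt2 was at 19.8, 18.1 and 18.5 CPM in controls and 15.2, 14.4 and 12.9 in libraries labelled p16-DTR, without overlap (-0.36 ± 0.08, adjusted p 0.130), as were 22.5% of genes. No gene of 21630 was called (0%) by edgeR in this comparison. Angpt2 alone of the members had an unadjusted edgeR p under 0.05 (0.0043), and the share of all genes under it is not given here. DESeq2 called Angpt2 with an adjusted p of 0.00623. How many genes DESeq2 called over all cells is not given here. Within the 17 types it called 5263, against 1492 by edgeR. Such sums cannot tell fewer cells of a type from less RNA per cell: the log2 fold change of Angpt1 within alveolar fibroblasts was -0.30, and control 1 had the most of those cells.

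Genes that act with the Tie receptors were counted from 4 lists in the 5 endothelial types and pericytes, where 0.506% of all gene tests were called higher and 0.692% lower. None of 67 tests of 14 adaptors and downstream kinases (Grb2, Dok2, Pik3r1, Akt1 and others) was called, and none of 39 tests of 8 partners and sheddases of the receptors. Of 79 tests of 14 FoxO factors and their general targets, 1 was called higher and 1 lower, and of 53 tests of 10 transcription factors linked to the Tek or Angpt2 promoters, 1 was called higher. Medians of a list within a type lay between -0.11 and 0.09 for the adaptors, -0.04 and 0.25 for the partners, -0.31 and -0.02 for the FoxO list and -0.07 and 0.06 for the transcription factors, each over these types, peribronchial and alveolar fibroblasts and natural killer cells, against -0.01 to 0.01 for all genes.

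The 3 called genes were all in venous endothelial cells. Insr, the insulin receptor gene, had 416, 371 and 380 CPM in controls and 296, 254 and 276 in libraries labelled p16-DTR (log2 fold change -0.48 ± 0.08 SE, edgeR adjusted p 0.0162; 0.0709 without p16-DTR 3). Txnip, a thioredoxin-binding protein, had 258, 308 and 240 CPM in controls and 391, 414 and 587 in libraries labelled p16-DTR (0.81 ± 0.16, adjusted p 0.0240). Its adjusted p was 0.0594 without p16-DTR 3, 0.0710 without control 1 and 0.0672 without control 3. Gata2, an endothelial and blood transcription factor, had 192, 209 and 197 CPM in controls and 262, 241 and 294 in libraries labelled p16-DTR (0.44 ± 0.09, adjusted p 0.0282). It lost the call without p16-DTR 1 (0.0645), p16-DTR 3 (0.103), control 1 (0.0859) or control 3 (0.0746). For each of these genes the groups did not overlap, as for 13.8% of venous genes in the lower direction and 9.61% in the higher one. Gata2 also lost its call with the stricter marker gate (0.0615). The venous gate's own markers did not overlap between the groups either, as given above. The part of these and of other types' markers in the 3 differences was not tested.

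Outside those types, and chosen after the values were seen, 3 listed genes were called in fibroblasts: 2 of 37 list tests in peribronchial fibroblasts, where 2.14% of all genes were called, and 1 of 45 in alveolar fibroblasts, where 1.76% were. Svep1, an extracellular matrix protein reported to bind Tie1, was lower in peribronchial fibroblasts, at 37.5, 28.2 and 22.0 CPM in controls and 15.5, 10.6 and 13.01 in libraries labelled p16-DTR (-1.11 ± 0.24 SE, edgeR adjusted p 0.0427). Its call was lost without control 1 (0.173), control 2 (0.0971), p16-DTR 2 (0.119) or p16-DTR 3 (0.124), and with the stricter marker gate (0.0921). Pik3ip1, an inhibitor of phosphoinositide 3-kinase, was lower in the same cells (-0.85 ± 0.18, edgeR adjusted p 0.0412). It was called in 1 of the 6 fits that left out a library, the one without p16-DTR 1 (0.0222), and not with the stricter marker gate (0.0703). Alveolar and adventitial fibroblast markers were also lower in peribronchial fibroblasts, without overlap. Their part in the Svep1 and Pik3ip1 differences was not tested. Ecscr, an endothelial surface protein, was at 2.52 to 2.73 CPM in control alveolar fibroblasts and 3.63 to 5.49 in those labelled p16-DTR (0.87 ± 0.16, adjusted p 0.0482), and of the same 6 fits was called in the one without p16-DTR 1 (0.0300). Its adjusted p was 0.0511 with library-size scaling and 0.0568 with cells of several lineages kept. No background limit was set for Ecscr, which was at a few CPM here. The part of free RNA and of endothelial cells in its difference was not tested.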

How the data were processed

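Single-cell RNA was measured in 6 libraries, 3 per group. The values deposited are whole UMI counts for each gene in each barcode, not normalized; the file headers name Cell Ranger 8.0.1, with mm10 as the build per the submitters' processing notes; the annotation release, the counting of introns or strand and the cell-calling settings are not given in the sources used here. Of the features, 31011 matched GENCODE M21 (GRCm38), used for positions. The labels give 1 library per mouse and no batch.

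Cells with at least 300 genes, 500 UMIs and at most 15% mitochondrial UMIs were kept. A lineage needed 3 markers with at least 2 UMIs (mesothelial 4), and a type within it a scaled marker score of at least 0.3 with a margin of 0.1. Cells passing several lineages (489 to 794 a library) were left out, which stood in for a doublet caller. The scoring rule was chosen after seeing the data, and members, markers and lists with earlier results of these data known. Named were the members, list genes called in endothelial types or pericytes, and the 3 genes most similar to each member; Svep1, Pik3ip1 and Ecscr, called in fibroblasts, fall outside this rule and were chosen after their values were seen.

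Counts were summed per library and type and tested with edgeR 4.0.16 in R 4.3.3 (quasi-likelihood, filterByExpr, TMM, Benjamini-Hochberg at 0.05). Standard errors were derived from the F statistic. Neighbouring levels were compared by exact two-sided sign-flip tests on log2(CPM + 1). The edgeR steps were also run on counts simulated from means and dispersions that edgeR itself had estimated. That run checked the code and gives no error rate for these data. Alternatives were RLE or library-size scaling, DESeq2 1.42.0, no low-count filter, a replicate block, each library left out, a stricter gate (4 markers, score 0.4, margin 0.2), cells of several lineages kept, and a stricter cell filter (1000 UMIs, 5% mitochondrial). Depth limits precision: p-values measure the spread between 3 mice per group, and 50 cells was the smallest tested sum.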

Additional observations from a re-analysis of the deposited data

How the results depend on the processing

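The 4 calls within cell types became 8 with DESeq2 and 2 with the stricter gate (60 tests); leaving out 1 library at a time gave 0 to 2. Other scalings, no low-count filter, the stricter cell filter and kept cells of several lineages gave 3 to 5, the last sharing 2 with the main 4. Over all genes in the 17 types the calls numbered 1492, and 5263 with DESeq2, 7032 without the filter, 981 with the stricter gate, 739 with cells of several lineages kept and 255 to 1075 with 1 library left out. Without the low-count filter Angpt2 in pericytes was added (adjusted p 0.00467). With a replicate block 3 were called, losing Angpt2 in venous cells (adjusted p 0.0782), and Txnip and Gata2 there were lost too (0.0595 and 0.0695). The replicate numbers share only a number: in no cell type did all 3 pairs correlate over 0.1, though in 3 types, among them natural killer cells, every control correlated best with its own number. Over all cells 0 members were called, and 1 with DESeq2. The interaction test called 0 in every setting run. Among neighbouring levels 0 of 28 passed by the exact test, which cannot pass after adjustment, and 21 with the edgeR library block, chosen after seeing the data.

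Of the single log2 fold changes of members above background in a type, 411 kept direction and call status. Most of those 411 were uncalled in the main fit and stayed so. The call was lost in 22, all of them refits of the 4 main calls, each run in 14 alternative settings. Another 4 gained a call, and 15 reversed, of main values between -0.11 and 0.08. Members below background are outside these counts: 2 gained a call, Tek in alveolar fibroblasts with DESeq2 and Angpt1 in classical monocytes with cells of several lineages kept (adjusted p 0.0360), and several changed sign at larger values, among them Angpt1 in neutrophils, from -0.360 to as much as 0.549 with 1 library left out. Leaving out 1 library moved Tek from -0.111 to 0.0409 in general capillary cells, -0.0541 to 0.213 in arterial cells, -0.160 to 0.155 in aerocytes and -0.673 to 0.388 in pericytes. It moved Ptprb from -0.0046 to 0.0401 in arterial cells and -0.289 to 0.0819 in aerocytes, and Angpt1 from -0.0799 to 0.0567 in pericytes. Tek in aerocytes became -0.0181 with library-size scaling, -0.0095 with the block and -0.129 with the stricter gate. Tek in pericytes became -0.0119 with the block and -0.0394 with cells of several lineages kept. The cause of these changes was not tested. Under the stricter gate arterial cells and pericytes were too few to be run. Depth limits Angpt2 and Tek where they are near background.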
